A study of Mus musculus with 6 samples.

Results

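Gm8325, Mrpl48-ps and Zc3h11a were picked from the liver transcriptomes of Chrna2fl/fl and Chrna2fl/fl;AlbCre mice as transcripts close to an on-off difference between the genotypes. Liver by liver, only Gm8325 bore this out. The levels by genotype made the choice and are therefore described without a test. The 3 symbols took up 4 of the 55491 rows of the gene table, since Zc3h11a was listed under 2 gene identifiers. Levels were FPKM, the number of sequenced fragments divided by the library size in M mapped fragments and by the effective length of the transcript in kilobases, which is its length less about that of a fragment, and differences were taken on log2(FPKM + 0.1), mutant minus control.

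Whole livers of 3 Chrna2fl/fl mice (controls a, b and c) and 3 Chrna2fl/fl;AlbCre mice (mutants a, b and c) were profiled by sequencing poly(A) RNA. Chrna2 encodes a subunit of the nicotinic acetylcholine receptor, both genotypes carried its floxed alleles, and AlbCre expresses Cre from the albumin promoter, which is active in hepatocytes. The study describes the knockout as restricted to hepatocytes. Every mouse, controls included, ate a high-fat diet with 60% of its calories from fat for 4 weeks from an age of 7 to 10 weeks and received the hepatotoxin CCl4 (0.5 μl per g of body weight, 2 injections a week) during the later weeks of the diet.

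Chrna2 stood at 1.24, 1.2 and 2.64 FPKM in controls and at 0.36, 0.03 and 0.32 FPKM in mutants, without overlap (log2 difference −2.52, limma adjusted p = 0.255). Cre was listed at 0 in each control and at 3.31, 2.76 and 4.34 FPKM in the mutants. The limma adjusted p of Cre was 0.0522 (log2 difference 5.13), the smallest of the 13943 genes tested. No gene, the transgene included, therefore passed at 0.05. The libraries of the 2 genotypes differed in depth, estimated from the spacing of low values at about 17.3 to 18.25 M fragments in controls and 9.15 to 9.35 M in mutants. Summed FPKM of 6 hepatocyte markers was 47760 to 70580 in controls and 46620 to 58250 in mutants, and the hepatocyte, Kupffer cell, sinusoidal endothelial cell and cholangiocyte lists held no marker whose genotypes failed to overlap. Of 3 stellate cell markers, Des was higher in every mutant than in every control, and of 3 erythroid markers, Alas2 was lower, where 18.7% and 4.34% of all genes tested did not overlap in these directions.

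A processed pseudogene is a DNA copy of a spliced messenger RNA that was pasted back into the genome, so it usually lacks introns and resembles its parent gene closely. Short reads from the parent and the copy can then match both, and a program such as RSEM divides them between the records by estimated share. Gm8325 resembles Ube2v1, the catalytically inactive partner of Ube2n in building ubiquitin chains linked through lysine 63 in signalling and DNA repair, and Mrpl48-ps resembles Mrpl48, a protein of the large subunit of the mitochondrial ribosome. Zc3h11a is no pseudogene but encodes a CCCH zinc finger protein which, in human cells, associates with the TREX complex and takes part in export of messenger RNA from the nucleus.

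Which bases separate the pseudogenes from their parents is shown first, because a read within the aligned stretch must cover one of them to tell the records apart. The parent transcripts run on beyond that stretch, so a read or its mate lying there can also separate them. Gm8325 (ENSMUSG00000027694, GRCm38 chr3:60877014-60877587, plus strand) is annotated as a transcribed processed pseudogene with a long transcript of 453 nt (ENSMUST00000099086) and a short one of 182 nt (ENSMUST00000193411). Both are annotated with 2 exons, around an intron of 110 bases in the long transcript and 119 bases in the short one. The long transcript aligned end to end with a Ube2v1 transcript at 97.6% identity, with 2 mismatches and 9 bases that Ube2v1 lacks. Its first 291 bases and the matching stretch of Ube2v1 (from GENCODE M21, capitals mark the bases that differ) read as follows.

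Gm8325: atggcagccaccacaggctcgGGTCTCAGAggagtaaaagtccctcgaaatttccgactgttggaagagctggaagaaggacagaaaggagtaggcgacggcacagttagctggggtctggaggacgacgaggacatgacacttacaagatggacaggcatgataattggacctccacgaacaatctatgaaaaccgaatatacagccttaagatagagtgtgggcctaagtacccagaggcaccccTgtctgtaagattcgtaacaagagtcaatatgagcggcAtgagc

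Ube2v1: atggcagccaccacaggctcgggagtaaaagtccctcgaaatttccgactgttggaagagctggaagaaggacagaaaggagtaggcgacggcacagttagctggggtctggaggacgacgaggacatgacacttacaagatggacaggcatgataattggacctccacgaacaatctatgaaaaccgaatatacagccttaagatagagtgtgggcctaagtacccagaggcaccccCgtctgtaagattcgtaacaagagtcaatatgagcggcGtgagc

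The 9 extra bases lie at positions 22 to 30 of the long Gm8325 transcript, counted from 1 at its 5′ end. They are the end of its first exon, which has 30 bases and stops at chr3:60877054, whereas that of the short transcript stops at 60877046. The mismatches are T248C and A286G, with the Gm8325 base first. The longest identical stretch was 217 bases, and 85 of its 303 windows of the length of 1 read occurred unchanged in transcripts of another gene (28.1%). The short transcript carries none of these differences. All of its 182 bases lie unchanged at the start of another Ube2v1 transcript, so 32 of its 32 windows were shared (100%), and no read within it can tell the genes apart.

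Mrpl48-ps (ENSMUSG00000078480, chr4:88599175-88599810, minus strand) is an unspliced processed pseudogene of 636 nt that aligned with a Mrpl48 transcript at 98.1% identity, with 12 mismatches and no gap. The 150 bases from position 300 to 449 hold 7 of the 12 mismatches and are the part in which the copy is easiest to distinguish.

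Mrpl48-ps: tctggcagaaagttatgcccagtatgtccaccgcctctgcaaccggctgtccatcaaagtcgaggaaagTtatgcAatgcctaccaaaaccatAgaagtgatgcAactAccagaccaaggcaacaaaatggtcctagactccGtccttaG

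Mrpl48: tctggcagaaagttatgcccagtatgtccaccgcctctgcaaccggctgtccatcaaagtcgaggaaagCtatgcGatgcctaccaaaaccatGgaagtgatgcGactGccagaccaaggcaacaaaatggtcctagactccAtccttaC

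The remaining mismatches are spread over the transcript, from C30T to C603G, and leave an identical stretch of 210 bases. Only 60 of the 486 windows of Mrpl48-ps were shared with another gene (12.3%). Among 13920 genes that averaged at least 0.5 FPKM and for which windows could be counted, 8.93% shared at least 12% of the windows of their longest transcript and 84.5% shared none.

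**Figure D1:**
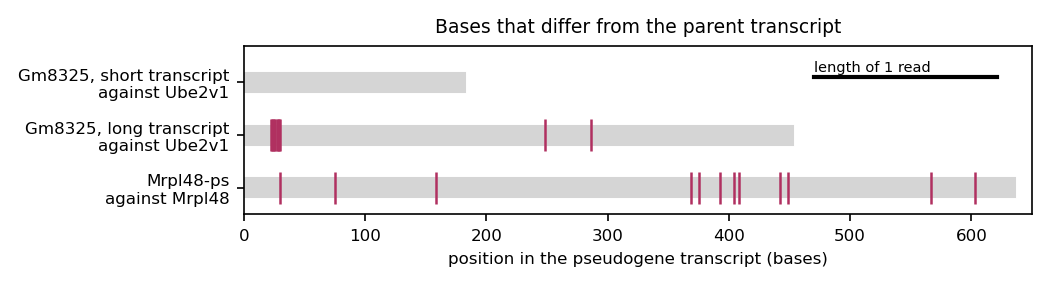
Positions, in bases from the 5′ end (x axis), at which each pseudogene transcript (grey bar, drawn to its length) differs from the parent transcript named beside it (red ticks). The black bar marks the length of 1 read. The short Gm8325 transcript has no tick, the long one has a block of 9 extra bases and 2 mismatches, and Mrpl48-ps has 12 mismatches.

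Gm8325 was high in every control and at the detection limit in every mutant. The control livers held 116.2, 108.05 and 109.89 FPKM, and the mutant livers 0, 0.67 and 0.59 FPKM. All controls lay within a narrow band far above all mutants, so this was a pattern of all or none in each liver (111.4 ± 4.27 FPKM against 0.42 ± 0.366, SD, n = 3 each; log2 difference −8.21). Every mutant lay below every control for 4.34% of the 13943 genes tested, those averaging 0.5 FPKM or more. Counted per liver, the ratio of the lowest control to the highest mutant, each plus 0.1 FPKM and called the gap here, was 140.5.

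The fragments behind these values were few in the mutants. If all of Gm8325 came from its 453-nt transcript, 1 fragment was worth 0.3 to 0.33 FPKM in controls and 0.58 to 0.635 FPKM in mutants. The levels would then amount to about 381, 327 and 366 fragments in the controls and to 0, 1.06 and 1.02 fragments in the mutants. With no fragment in mutant a, up to 1.83 FPKM (3 fragments) would be compatible with the count, a limit that covers counting error only. In bulk tissue, fewer cells with a transcript and less of it per cell cannot be told apart.

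The parent Ube2v1 (ENSMUSG00000078923, chr2:167607638-167632095) did not follow this pattern. It stood at 33.0, 40.7 and 34.5 FPKM in controls and at 42.57, 44.15 and 44.98 FPKM in mutants, every mutant being above every control, as in 18.7% of the genes tested. The log2 difference was 0.29 ± 0.13 (SE) and did not pass the test (limma adjusted p = 0.322). Gm8325 plus Ube2v1 summed to 149.2, 148.8 and 144.4 FPKM in controls and to 42.57, 44.82 and 45.57 FPKM in mutants. The sum kept the separation of Gm8325 (147.4 ± 2.66 against 44.3 ± 1.56 FPKM, log2 difference −1.73). Gm8325 held 72.6 to 77.9% of it in controls and at most 1.5% in mutants. FPKM is divided by effective length, and the aligned transcripts of Gm8325 and Ube2v1 have 453 and 2041 nt. Fragments moved from one record to the other would therefore change the sum, so it cannot show whether reads were shared. Read sharing between these records was not tested.

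How Gm8325 divided between its 2 transcripts was not analysed here, since the table gives a value per gene. The split matters to the size of the level, because a 182-nt transcript is shorter than the mean fragment, which fitted best at 280 to 284 nt. Of 300 genes with a single transcript of 172 to 192 nt, 4 were above 0 in any liver. Among 320 genes with a single transcript in the next class of length, from 193 nt, the 49 values above 0 had a median of 17.5 FPKM and none was under 0.69 FPKM. Whether the level of Gm8325 came from such a short transcript was not tested.

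In all, 10 genes matched Gm8325 at 90% identity or more over at least 150 bases. Besides Ube2v1, Gm5830 was at 0.35 FPKM in control b and at 0.66 and 0.61 FPKM in mutants b and c, and at 0 in the other livers. Gm12502 appeared in mutant c alone (1.74 FPKM), and the other 7 were listed at 0 in all 6 livers. None of these 9 was present in every control and missing from a mutant. Ube2n, the catalytic partner of Ube2v1, was at 41.5 ± 12.3 FPKM in controls and 49.3 ± 5.16 in mutants (limma adjusted p = 0.509), and the homologue Ube2v2 at 18.4 ± 2.87 and 23.3 ± 3.58 (adjusted p = 0.376).

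Mrpl48-ps was of the all-or-none kind by liver but not by genotype. It was listed at 0 in controls a and c and at 3.83 FPKM in control b, and it stood at 4.44, 2.99 and 4.15 FPKM in the mutants. Control b lay above mutant b, so the genotypes overlapped and the label of an on-off transcript did not hold (1.28 ± 2.21 against 3.86 ± 0.767 FPKM, SD, n = 3 each; log2 difference 3.52). The values were worth about 23.9 fragments in control b and 14.8, 9.65 and 14.1 fragments in the mutants. An absence of fragments in controls a and c allows up to 0.45 FPKM in each. Without control b, the gap in favour of the mutants would rise from 0.786 to 30.9.

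Mrpl48 (ENSMUSG00000030706, chr7:100545751-100608301) was at 24.82, 31.77 and 23.31 FPKM in controls and at 37.56, 28.34 and 27.87 FPKM in mutants. Control b, the control with Mrpl48-ps, was also the highest control for the parent, and it lay above mutants b and c. The difference in Mrpl48 did not pass the test (0.23 ± 0.18 (SE), adjusted p = 0.526). Where Mrpl48-ps was present, it made up a similar share of the sum of both records, namely 10.8% in control b and 10.6, 9.54 and 13.0% in the mutants. The sums were 24.82, 35.6 and 23.31 FPKM in controls and 42, 31.33 and 32.02 in mutants and overlapped between the genotypes. These sums, too, join transcripts of unlike length, 636 nt for Mrpl48-ps and 4285 nt for the aligned Mrpl48 transcript. Rpl48-ps1, the only other gene that matched Mrpl48-ps, was listed at 0 in every liver.

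Zc3h11a was recorded as 2 genes over one locus. ENSMUSG00000102976 (chr1:133619862-133661380, minus strand, 12 transcripts) stood at 11.66, 11.76 and 18.46 FPKM in controls and at 33.54, 26.85 and 32.68 FPKM in mutants. ENSMUSG00000116275 (chr1:133619871-133661380, 1 transcript of 4395 nt) stood at 19.35, 18.78 and 15.34 FPKM in controls and at 0, 8.81 and 0.03 FPKM in mutants. Each record separated the genotypes, in opposite directions. The first was at 13.96 ± 3.90 against 31.02 ± 3.64 FPKM (log2 difference 1.17), the second at 17.8 ± 2.17 against 2.95 ± 5.08 FPKM (log2 difference −5.19). Of all genes tested, 18.7% had every mutant above every control and 4.34% had every mutant below.

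The second record was all or none only in part, because mutant b kept 8.81 FPKM. Its gap was 1.73, and 119 without mutant b. The gap of the first record in favour of the mutants was 1.45. Its control c, the highest of the 3, was the control in which the second record was lowest, and its mutant b, the lowest mutant, was the one in which the second record was highest.

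Added together, the 2 records gave 31.01, 30.54 and 33.8 FPKM in controls and 33.54, 35.66 and 32.71 FPKM in mutants. Mutants a and c fell below control c, so the total overlapped between genotypes (31.8 ± 1.76 against 34.0 ± 1.52 FPKM), and its log2 difference was 0.10, turning to −0.09 when the libraries were scaled by median ratios. What differed was the share of the second record, at 62.4, 61.5 and 45.4% of the sum in controls and at 0, 24.7 and 0.0917% in mutants.

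**Figure D2:**
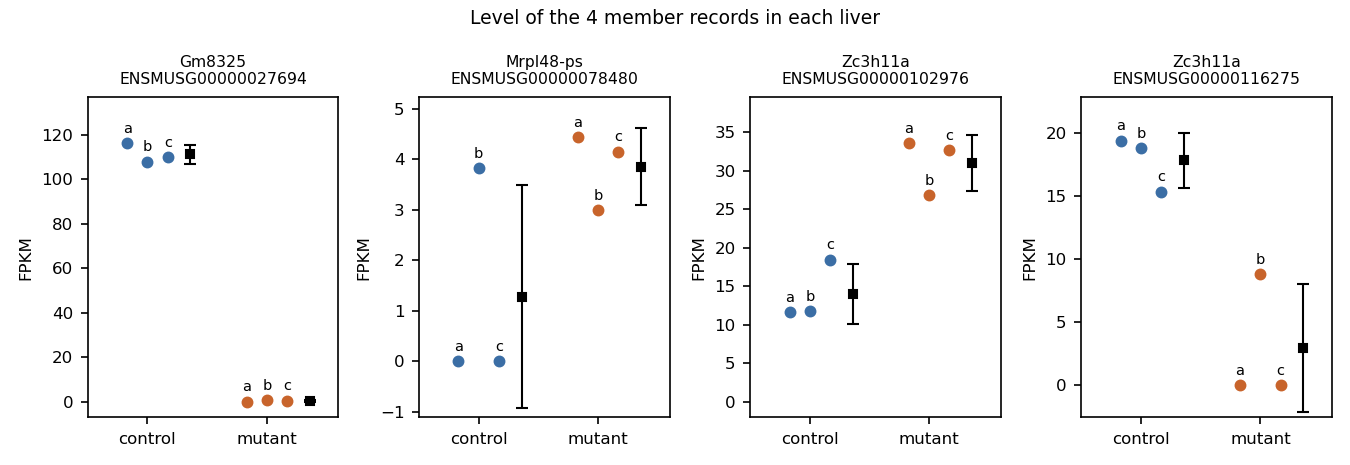
FPKM (y axis, one scale for each panel) of the 4 records in each liver, with controls in blue and mutants in orange and the letter naming the liver. Black squares and bars are the mean ± SD of 3 livers. Gm8325 separates fully, Mrpl48-ps of control b lies among the mutants, and the 2 Zc3h11a records move in opposite directions with mutant b between the extremes.

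The transcripts of the 2 Zc3h11a records are almost the same molecule. The longest transcript of the first record (ENSMUST00000191896, 4396 nt, 18 exons) and the transcript of the second (ENSMUST00000027736, 17 exons) have no mismatch and share 15 exons with the same start and end, as well as all 15 coding segments, 2376 coding bases in all. They encode the same protein. The first differs by an exon of 54 bases before the start codon (chr1:133655345-133655398) that the second skips, and by 9 more bases at its 3′ end, whereas the second begins 62 bases further upstream. The longest identical stretch was 4251 bases. Of the read-length windows, 97.9% of those in the first and 98.7% of those in the second occurred in another gene record, as at least 97% did in 1.32% of the genes tested.

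**Figure D3:**
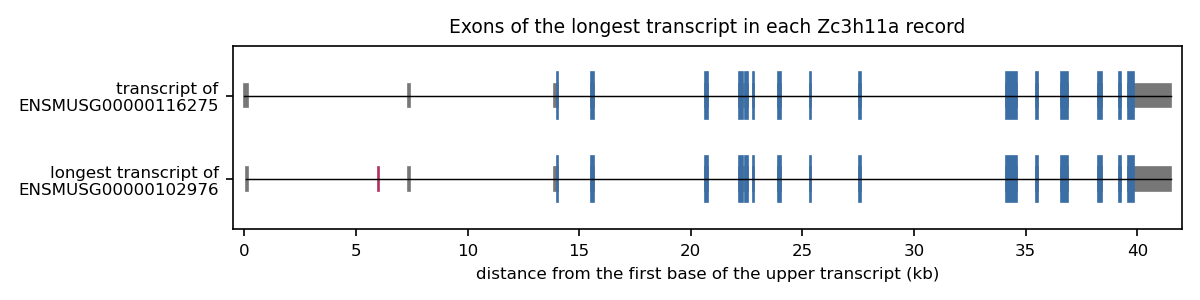
Exons of the longest transcript in each Zc3h11a record by distance from the first base of the upper one (x axis, kb, reading 5′ to 3′). Tall blue boxes are coding segments, low grey boxes are untranslated parts, and the red box is the 54-base exon found only in the lower transcript. The 15 coding segments coincide.

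The other 11 transcripts of the first record were shorter, from 300 to 973 nt, and shared 0 to 92.1% of their windows. How the first record divided among its transcripts was not analysed here, and neither was Zbed6, a gene derived from a transposon that lies in an intron of Zc3h11a. Gm38394, another record over the same locus, was at 0.89, 1.89 and 1.82 FPKM in controls and at 1.49, 1.45 and 0.81 FPKM in mutants and did not pass the test (log2 difference −0.25, adjusted p = 0.749). The more distant matches Gm5120 and Gm6494 were listed at 0 throughout.

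Other symbols with 2 overlapping records were set beside the split, although several of these pairs share little sequence and give only a rough comparison. In 12 such symbols with a summed level of at least 1 FPKM in every liver, the share held by one record ranged over a median of 8.33 percentage points between livers. Zc3h11a moved by 62.4 points and was the only one to move by over 50. Tmem147os (39.6 points) and Snhg4 (32.7 points) moved by over 20. Zc3h11a was also the only one of the 12 whose shares did not overlap between genotypes, which is how it was chosen. Pairs were also ranked by the lower of the shared window percentages of their 2 records, where windows could be counted. Besides Zc3h11a, the highest were Nnt (96.2%), Ptp4a1 (92.3%) and Septin2 (82.7%), which moved by 16.9, 4.72 and 9.68 points. The same percentage was 2.40% for Tmem147os and 0% for Ddit3 and Atp5o, whose shares did not move.

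**Figure D4:**
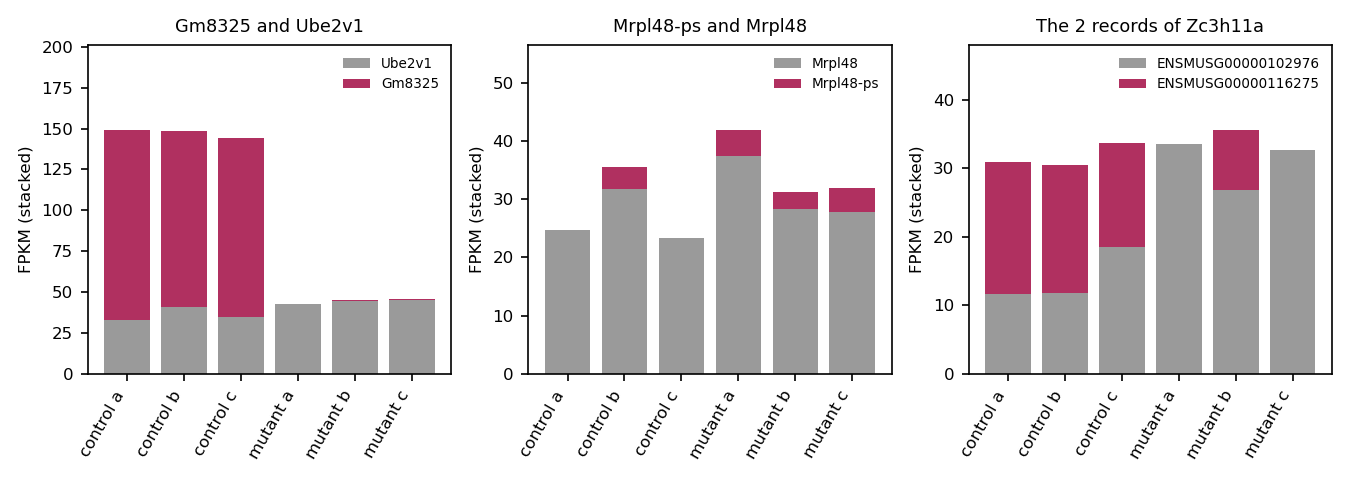
Stacked FPKM (y axis, from 0) of each member and the record it resembles in each of the 6 livers. With Ube2v1, the stack reaches 144.4 to 149.2 FPKM in controls and 42.57 to 45.57 FPKM in mutants, where the Gm8325 block is at most 0.67 FPKM. Mrpl48-ps is a small block in control b and the mutants. The Zc3h11a totals stay between 30.54 and 35.66 FPKM while their division changes. Stacked FPKM of records of unlike length is no count of fragments.

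The 15 genes related to the 3 members by sequence or locus were tested as far as their levels allowed. Of these, 10 were listed at 0 in all livers and 3 (Ube2v1, Mrpl48 and Gm38394) reached a mean of 0.5 FPKM. With limma, 0 of the 3 passed at an adjusted p under 0.05 and 0 at an unadjusted p under 0.05, against 0 (0%) adjusted, and 1842 higher (13.2%) and 421 lower (3.02%) unadjusted, of 13943 genes. A p that misses the threshold does not show that the genotypes were alike.

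The same gap was computed for the 23796 rows above 0 in any liver, as a description, since Gm8325 was chosen on these values. A gap of at least 10, with the lowest liver of the higher genotype at 1 FPKM or more, was met by 6 rows higher in controls (0.0252%) and 2 higher in mutants (0.0084%). Gm8325 was 1 of the 6, and neither Mrpl48-ps nor a Zc3h11a record was among them. The other 5 were listed at 0 in all mutants and ran from 1.15 to 2.83 FPKM in controls. These were the antisense gene Gm11586 (2.61 ± 0.225 FPKM, SD, n = 3), the small nucleolar RNA gene Gm23547 (1.71 ± 0.134), the pseudogenes Gm11196 (1.43 ± 0.1) and Gm9830 (1.7 ± 0.56), and the immunoglobulin segment Igkv1-135 (1.49 ± 0.226). Levels that low were worth about 1.95 to 14.2 fragments per control for the 4 of them other than Gm23547, and the mutant libraries were the shallower ones.

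In the other direction stood Cre, with a gap of 28.6, and Gm47327, listed at 0, 0 and 0.15 FPKM in controls and at 2.92, 8.51 and 2.79 FPKM in mutants, with a gap of 11.6. The next largest gaps were 6.1 for Gm15634, 5.9 for Gm43101 and 5.5 for Gm35082, all at 0 in the controls. In the controls, Gm8325 was at 108.05 FPKM or more.

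**Figure D5:**
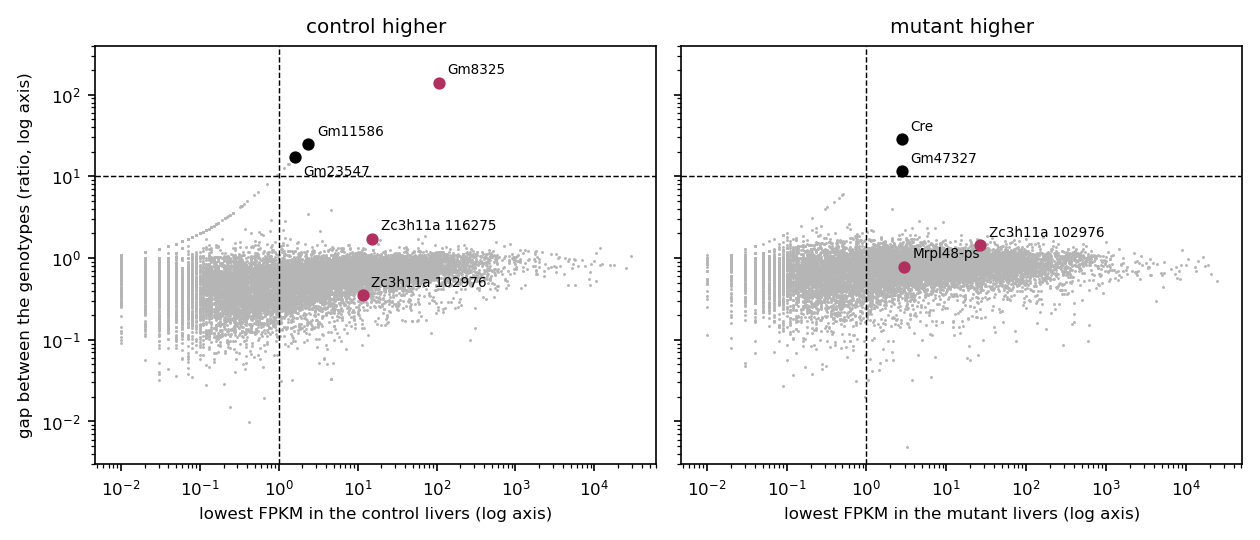
Gap between the genotypes (y axis, ratio, log scale) against the lowest FPKM in the higher genotype (x axis, log scale) for rows above 0 in every liver of that genotype, with controls higher on the left and mutants higher on the right. Dashed lines mark a gap of 10 and 1 FPKM, and members are red. Gm8325, chosen on these values, has a gap of 140.5, whereas Mrpl48-ps and both Zc3h11a records lie below 10.

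Listing at 0 in some livers only was more common. In 205 rows, at least 1 liver was at 0 while another reached 3 FPKM, and 113 of these were pseudogenes. At least 12% of the windows of the longest transcript were shared with another gene in 105 of the 205 (51.2%), beside 8.93% of the genes that averaged at least 0.5 FPKM. The cutoff of 12% lies just under the 12.3% of Mrpl48-ps. Gm8325, Mrpl48-ps and the second Zc3h11a record are among the 205 and also among the 105, for Mrpl48-ps by the place of the cutoff.

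Neighbouring genes on the chromosome were compared to see whether a change extended beyond the member. Within 500 kb of Gm8325 lay 14 genes, of which 3 were tested, Rap2b (log2 difference 0.82, adjusted p = 0.319), a small GTPase of the Ras family, Mbnl1 (0.28, adjusted p = 0.424), a regulator of splicing, and P2ry1 (−0.38, adjusted p = 0.586), a purinergic receptor. All 3 were above 0 in every liver. Of 55 genes within 500 kb of Mrpl48-ps, 46 were listed at 0 in all livers, among them all 18 type I interferon genes, and 5 were tested. Those with the smallest p were Focad (0.35, adjusted p = 0.420), Gm26566 (0.31, adjusted p = 0.762) and Hacd4 (0.23, adjusted p = 0.842).

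Around Zc3h11a, 11 of 31 genes were tested. Etnk2, an ethanolamine kinase of phospholipid synthesis, stood at 138.9, 151.1 and 120.4 FPKM in controls and at 102, 90.68 and 57.57 FPKM in mutants. Every mutant was below every control, as in 4.34% of the genes tested. Etnk2 did not pass over all genes (−0.75 ± 0.23 (SE), limma adjusted p = 0.255). Snrpe, a core protein of spliceosomal particles, lies 9571 bp away and was at 51.8 ± 11.1 FPKM in controls and 74.7 ± 3.88 in mutants (0.55 ± 0.17 (SE), adjusted p = 0.260), and Btg2, an antiproliferative gene, had a log2 difference of 0.52 (adjusted p = 0.344). Over the 3 neighbourhoods limma called 0 genes at an adjusted p under 0.05, while unadjusted Snrpe was higher and Etnk2 lower at a p under 0.05, 1 each of 19 genes tested, where 13.2% of all genes were higher and 3.02% lower.

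Genes that act with the parents and with Zc3h11a were described as lists. Of 49 genes named Mrpl, for proteins of the large subunit of the mitochondrial ribosome, 0 passed limma at an adjusted p under 0.05, while an unadjusted p under 0.05 was reached by 7 in the direction of the mutants and 0 in that of the controls, against 13.2% and 3.02% of all genes tested. Their median log2 difference of 0.21 was close to that of all genes tested, 0.19. Mrpl1 (9.80 ± 1.02 against 13.2 ± 0.544 FPKM, adjusted p = 0.267), Mrpl33 (63.6 ± 14.8 against 90.2 ± 7.68 FPKM, adjusted p = 0.282) and Mrpl51 (45.1 ± 4.92 against 58.3 ± 5.28 FPKM, adjusted p = 0.285) had the smallest p.

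Of 32 tested genes of messenger RNA export, 0 passed at an adjusted p under 0.05, and 7 were higher and 0 lower unadjusted (13.2% and 3.02% over all genes tested), with a median log2 difference of 0.23 beside 0.19 for all genes. Erh, a partner of export and splicing factors, was at 36.0 ± 7.40 FPKM in controls and 56.5 ± 5.55 in mutants (adjusted p = 0.255), Thoc6, a THO subunit, at 4.09 ± 0.585 and 6.17 ± 0.382 (adjusted p = 0.255), and the TREX helicase Ddx39b at 37.8 ± 6.98 and 52.4 ± 4.91 (adjusted p = 0.272). Of 14 tested genes of the Zc3h series other than Zc3h11a, 0 passed at an adjusted p under 0.05, and 1, Zc3h7a (41.7 ± 0.819 against 61.6 ± 13.2 FPKM, adjusted p = 0.267), was higher unadjusted and 0 lower, against the same 13.2% and 3.02%. Zc3h12d (adjusted p = 0.441) and Zc3h8 (adjusted p = 0.478) followed, and the median of the series was 0.07.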

How the data were processed

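Directional poly(A) libraries of 6 livers, 3 per genotype, were read as paired 151-nt reads. The authors aligned them to GRCm38 with STAR 2.7.8a and deposited gene FPKM from RSEM 1.3.3, rounded to 2 decimals; cutadapt 2.3, FastQC 0.11.8 and MultiQC 1.7 are listed in the submitters' processing notes. Their Ensembl release is not given in the sources used here. FPKM sums were 807344 to 838937 per library, with 18623 to 19843 genes above 0.

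Positions and transcripts came from GENCODE M21 (55227 of 55491 rows matched). Transcripts were compared with blastn 2.17.0 (at least 90% identity over 150 bases) and by exact 151-base windows in Python 3.11.15. Genes that averaged 0.5 FPKM or more were tested with limma 3.58.1 in R 4.3.3 (trend) on log2(FPKM + 0.1), Benjamini-Hochberg adjusted over 13943 genes at 0.05; the script was tested on simulated data. Depth was estimated from steps between low FPKM values of transcripts of 600 to 2500 nt (79.0 to 86.6% of values whole within 0.15 fragments), and limits of 3 fragments cover counting error only.

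The members and lists were chosen with earlier results of these data known. Named genes were the members, Chrna2, Cre, related genes, up to 3 neighbours per member and 3 genes per list by smallest p, and the 5 largest other gaps in each direction. Tmem147os, Snhg4, Nnt, Ptp4a1, Septin2, Ddit3, Atp5o, Ube2n, Ube2v2, Des and Alas2 lie outside this rule and were chosen after their values were seen. No label states that the replicate letters pair the livers, and the main fit treated them as unpaired. Alternatives were other pseudocounts, filters, scalings, no trend, a replicate block and each liver left out.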

Additional observations from a re-analysis of the deposited data

How the results depend on the processing

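All 4 member records kept their direction under the other pseudocounts, median-ratio scaling and each liver left out. The size depended on the pseudocount: with 1 and 0.01 in place of 0.1, Gm8325 (log2 difference −8.21) was −6.34 and −9.45, Mrpl48-ps (3.52) 1.51 and 5.71, and ENSMUSG00000116275 (−5.19) −3.12 and −6.87. Gm8325 was −1.73 summed with Ube2v1, a sum over transcripts of unlike length, and lay between −8.73 and −7.26 with a liver left out. Summing, added after seeing the data, moved Mrpl48-ps to 0.34 and each Zc3h11a record to 0.10. With a liver left out, Mrpl48-ps lay between 2.64 and 5.29, ENSMUSG00000102976 between 1.06 and 1.39, and ENSMUSG00000116275 between −7.29 and −4.05. Median-ratio scaling moved the median of all tested genes from 0.19 to 0.01.

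Rows with an on-off gap higher in controls (6) were 2 at a gap of 20, 1 with a pseudocount of 1, 9 to 14 with a liver left out and 4 without genes sharing at least 12% of windows, a choice added after seeing the data. Those higher in mutants (2) were 1, 0, 3 to 7 and 2. The window filter removed Gm8325 itself (28.1% of windows shared) and Gm9830 (100%), and the 4 rows left higher in controls were at 2.83 FPKM or less.

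No related, neighbouring or list gene that is named passed under any alternative (21 genes, smallest adjusted p 0.0610), and 5 of 286 values changed sign: Gm38394 without mutant c (0.011; range with a liver left out −0.58 to 0.011), Gm26566 without mutant a (−0.17; range −0.17 to 0.66), and Hacd4 under quantile normalization (−0.13), without control c (−0.22) and without mutant b (−0.24; range −0.24 to 0.55). Unadjusted higher calls fell under median-ratio scaling from 7 to 0 for Mrpl genes, from 7 to 2 for export genes and from 1 to 0 for the Zc3h series. The share of all tested genes called at each alternative setting is not given here. These counts and those that follow are therefore no result about the lists. Mrpl calls numbered 3 with quantile normalization, 2 without the trend and 0 (without control a) to 19 (without control b) with a liver left out. Export calls were then 2 (without control c), 3 (without control a or mutant a), 4 (without mutant c), 5 (without mutant b) or 7, and 4 with quantile normalization. Zc3h calls were 0 without mutant a or c and 2 without control b, and 0 with quantile normalization. The replicate block left 5 unadjusted Mrpl calls and 0 adjusted calls in each list. Deviations correlated at −0.02 to 0.06 between same-letter livers and at −0.05 to 0.04 between the other pairs, which cannot settle whether the livers were paired. Depth limits Mrpl48-ps and the mutant values of Gm8325, which rest on under 25 fragments per liver.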
